A study of Mus musculus with 5 samples.

Results

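Brown adipocyte nuclei rich in Rorb, Mmd2, Vat1l, Trim67, Adamts6 and Cdh2 transcripts are described here from single-nucleus RNA sequencing of mouse interscapular brown adipose tissue (iBAT). The nuclei were chosen by these 6 genes, called the marker genes below. A barcode (the droplet tag that stands for 1 nucleus) was first kept as an adipocyte nucleus, called gated, when it held at least 1000 unique molecular identifiers (UMIs, each one counted transcript), at least 0.8% of them in Adipoq, Plin1, Plin4, Lipe, Pparg, Cidec, Pnpla2 and Acsl1, and at most 2 UMIs summed over 9 markers of other lineages (Ptprc, Mrc1, Flt1, Cyyr1, Pdgfra, Abcc9, Ttn, Skap1 and Cadm2). Within each library, the 20% of gated nuclei with the highest percent of UMIs in the marker genes were then selected and are called marker-rich nuclei. They numbered 2736 of 13673 gated nuclei, of 20307 barcodes in the matrix of the WT and Ucp1-STX4KO samples and of 50307 barcodes in both matrices of the series. The levels of the 6 genes in these nuclei are fixed by that choice, so they are given as a description, and all other genes were compared with the remaining gated nuclei of the same library.

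The study asked what happens to brown adipocytes when the membrane fusion protein Syntaxin 4 (STX4, encoded by Stx4a) is lost and when mice age. One matrix held nuclei of 3-month-old WT littermate control mice and of Ucp1-STX4KO mice, in which Cre recombinase under the Ucp1 promoter removes floxed Stx4a from Ucp1-expressing cells. The other held nuclei of C57BL/6J mice named Young adult (2 months), Middle age (12 months) and Old (24 months). Each group was 1 library of sorted nuclei from male mice, and the methods name 4 mice without dividing them over the samples.

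Rorb encodes an orphan receptor of the retinoic acid receptor-related (ROR) family, nuclear receptors that bind DNA at a short half-site and are best known from the retina and brain and from circadian control. Cdh2 encodes N-cadherin, a calcium-dependent adhesion protein, Adamts6 a secreted metalloprotease of the extracellular matrix, Trim67 an E3 ubiquitin ligase, Vat1l a protein related to the oxidoreductase VAT1, and Mmd2 a membrane protein of the progestin and adipoQ receptor family. Brown adipocytes burn fatty acids through UCP1 to make heat, and they also make fatty acids anew from glucose-derived citrate, a pathway that is active in this tissue and is driven by SREBP1c and ChREBP.

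The libraries of the first matrix could be told apart only by the suffix of the barcode, and no label ties a suffix to a genotype, so the matrix was treated as 1 pooled sample with 2 libraries, called suffix 1 and suffix 2, and no genotypes were compared. With nuclei from 1 library per group there are no replicates, so no test was made and a rule of size was used instead. Suffix 1 held 11201 barcodes and 76195924 UMIs, suffix 2 held 9106 barcodes and 39857819 UMIs, although the methods state that 10000 cells were forced per library. The libraries stood apart in make-up, since 86.7% of suffix 1 barcodes but 43.5% of suffix 2 barcodes passed the gate, giving 9709 and 3964 gated nuclei with median depths of 6199 and 5249.5 UMIs. Stx4a stood at 60.1 counts per 1000000 UMIs (CPM) over gated nuclei of suffix 1 and at 49.1 CPM in suffix 2, which checks no label because neither suffix has a genotype and 3′ tags can lie outside a deleted part. The suffixes shared 23 barcode sequences, 12 of them gated in both and 0 of them marker-rich in both.

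The gated nuclei carried the markers of brown adipocytes. In marker-rich nuclei Ucp1, the uncoupling protein of heat production, stood at 1048 CPM in suffix 1 and 947 CPM in suffix 2, against 1026 and 809 CPM in the other gated nuclei. Cidea, a lipid droplet protein of brown fat, stood at 1129 and 902 CPM against 1298 and 648 CPM. Prdm16 and Ebf2, transcription factors that set the brown adipocyte fate, had CPM ratios of marker-rich to other gated nuclei of 1.196 and 1.17 in suffix 1 and of 1.17 and 1.52 in suffix 2. Barcodes outside the gate that carried markers of other lineages held Ucp1 at 496 and 257 CPM, Cidea at 592 and 158 CPM and Prdm16 at 180.4 and 185 CPM, all lower than in marker-rich nuclei, but Ebf2 at 1384 and 781 CPM, against 1358 and 1776 CPM in marker-rich nuclei, so Ebf2 did not part them in suffix 1. Ppargc1a, Dio2 and Esrrg were also higher in marker-rich nuclei than in those barcodes in both suffixes. Cox8b was higher by little, at 169 against 153 CPM in suffix 1 and 61.0 against 49.6 CPM in suffix 2. Cox7a1 was lower in suffix 1, at 51.4 against 62.7 CPM, and higher in suffix 2, at 25.1 against 16.7 CPM. The nuclei thus carried Ucp1, Cidea and Prdm16 above that background in both suffixes, but not Ebf2 or Cox7a1 in suffix 1. Rorb was not their leading gene. Rorb had the most UMIs among the 6 genes in 6.90% of marker-rich nuclei of suffix 1 and in 4.53% of suffix 2, whereas Cdh2 led in 46.8% of suffix 1 and Vat1l in 42.4% of suffix 2, so the nuclei are called by their rule, not as Rorb-rich.

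Rorb lies on mm10 at chr19:18930605-19111196 on the minus strand, Vat1l at chr8:114205612-114374071 on the plus strand, Trim67 at chr8:124793092-124834713, Mmd2 at chr5:142562358-142608800 and Adamts6 at chr13:104287835-104496695. The marker genes are long, with a median span of 174.5 kb against 31.5 kb over the genes measured. The windows from 250 bases before to 50 bases after the RefSeq start (GRCm38.p6) are shown for Rorb (upstream start) and Vat1l, the marker genes whose held-out levels differed most clearly in both libraries, and for Acly, Fasn and Insig1, lipogenic genes described below. Capitals mark the nuclear receptor half-site AGGTCA and the E-box CACGTG on either strand, which overlap in the window of Insig1. The sequences run 5′ to 3′ along each gene's own strand.
Rorb (chr19:19111147-19111446, minus strand): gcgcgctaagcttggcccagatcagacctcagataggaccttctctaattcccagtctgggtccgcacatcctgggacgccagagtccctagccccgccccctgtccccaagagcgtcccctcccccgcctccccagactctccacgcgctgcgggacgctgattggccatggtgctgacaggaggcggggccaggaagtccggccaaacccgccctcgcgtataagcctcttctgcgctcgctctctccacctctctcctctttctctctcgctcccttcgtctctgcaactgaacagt
Vat1l (chr8:114205390-114205689, plus strand): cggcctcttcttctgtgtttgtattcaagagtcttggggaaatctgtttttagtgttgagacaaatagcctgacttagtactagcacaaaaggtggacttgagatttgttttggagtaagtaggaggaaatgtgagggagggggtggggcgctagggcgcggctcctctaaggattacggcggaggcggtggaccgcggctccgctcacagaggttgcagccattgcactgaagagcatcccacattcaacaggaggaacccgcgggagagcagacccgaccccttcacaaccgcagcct
Acly (chr11:100527951-100528250, minus strand): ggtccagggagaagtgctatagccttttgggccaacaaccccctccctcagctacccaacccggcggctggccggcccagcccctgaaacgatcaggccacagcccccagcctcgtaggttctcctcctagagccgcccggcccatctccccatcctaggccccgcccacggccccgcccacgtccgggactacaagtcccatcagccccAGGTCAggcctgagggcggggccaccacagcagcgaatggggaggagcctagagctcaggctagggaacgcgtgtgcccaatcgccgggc
Fasn (chr11:120824498-120824797, minus strand): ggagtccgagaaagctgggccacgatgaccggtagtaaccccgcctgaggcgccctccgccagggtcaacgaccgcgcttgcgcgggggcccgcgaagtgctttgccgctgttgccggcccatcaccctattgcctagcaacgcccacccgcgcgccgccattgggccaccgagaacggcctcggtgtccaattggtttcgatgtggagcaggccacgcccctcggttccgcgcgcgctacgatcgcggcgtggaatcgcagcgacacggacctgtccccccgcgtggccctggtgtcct
Insig1 (chr5:28071162-28071461, plus strand): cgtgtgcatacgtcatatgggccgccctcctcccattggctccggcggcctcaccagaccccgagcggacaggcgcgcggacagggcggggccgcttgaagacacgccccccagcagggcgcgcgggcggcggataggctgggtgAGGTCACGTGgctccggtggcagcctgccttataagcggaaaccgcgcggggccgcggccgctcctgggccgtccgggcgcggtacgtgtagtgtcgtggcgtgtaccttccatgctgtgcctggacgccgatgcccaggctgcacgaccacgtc

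The half-site AGGTCA, the core bound by ROR and other nuclear receptors, was present in 5340 of 32851 windows (16.3%) over all genes. It was in 0 of 5 windows of the 4 marker genes that were matched, and in 4 of 17 windows of the 13 de novo lipogenesis genes matched, namely those of Acacb, Acly, Elovl6 and Insig1. The E-box CACGTG, searched for after the gene levels were seen, was in 2349 windows (7.15%), in 0 of the 5 marker gene windows and in 4 of the 17 lipogenesis windows (Elovl5, Insig1, Mlxipl and Slc25a1). The half-site of Acly began 40 bases before the start. A match of letters says nothing about binding.

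The marker genes as chosen stood as follows. Over all gated nuclei, Rorb stood at 47.8 (95% interval 46.2 to 49.5) CPM in suffix 1 and 12.3 (95% interval 10.96 to 13.8) CPM in suffix 2, where the intervals cover counting error only, as do all intervals below. Cdh2 stood at 275 and 61.03 CPM, Trim67 at 123 and 22.2 CPM, Adamts6 at 71.3 and 22.1 CPM, and Mmd2 at 19.6 and 2.02 CPM. All 6 genes were lower in suffix 2, and Vat1l, at 106 and 81.4 CPM, differed least between the libraries. In marker-rich nuclei the choice set Rorb at 145 CPM against 25.8 CPM in other gated nuclei of suffix 1, and at 46.5 against 5.095 CPM in suffix 2. Vat1l stood at 326 against 56.5 CPM and at 391 against 16.3 CPM. Cdh2 stood at 614 against 198 CPM and at 222 against 27.2 CPM, Trim67 at 231 against 98.6 CPM and at 45.1 against 17.3 CPM.

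**Figure D1:**
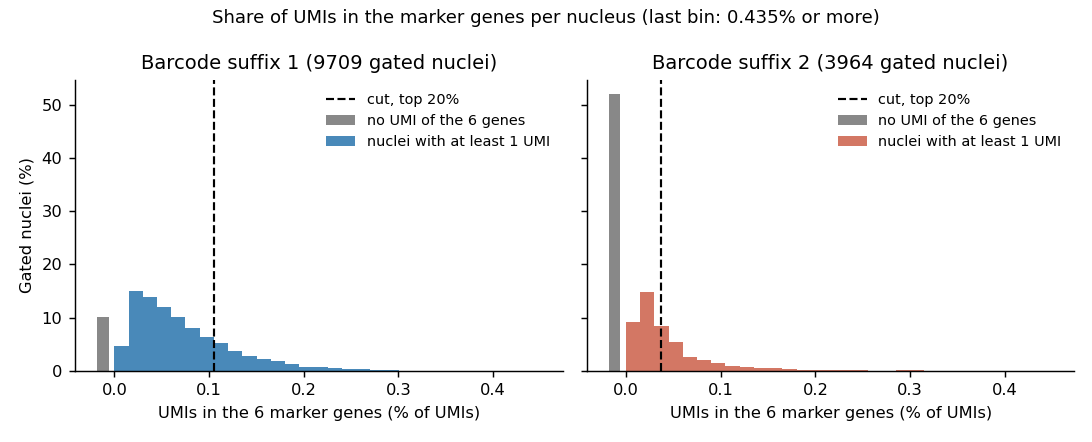
Histogram of the percent of a nucleus's UMIs in the 6 marker genes, 1 panel per barcode suffix, with the percent of gated nuclei on the vertical axis and the line marking the selected top 20%. The shares run on without a gap at the line, and 2064 of 3964 gated nuclei of suffix 2 hold no marker gene UMI.

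The choice cut a continuous range. The lowest marker-rich nucleus of suffix 1 had 0.1052% of its UMIs in the marker genes and the highest of the other nuclei also 0.1052%, a difference in the fifth decimal. In suffix 2 the corresponding values were 0.0368% and 0.0367%. In suffix 1, 765 gated nuclei lay within 10% of the threshold on either side, and in suffix 2 there were 163. The threshold was lower in suffix 2, where 165 nuclei (4.16%, exact binomial 95% interval 3.56 to 4.83%) reached the threshold of suffix 1. In suffix 1, 10.1% of gated nuclei had no marker gene UMI, against 52.1% in suffix 2. Marker-rich nuclei of suffix 1 held a median of 9 marker gene UMIs against 3 in the other gated nuclei, and those of suffix 2 held 3 against 0.

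Single nuclei seldom carried all 6 genes. In suffix 1 the median marker-rich nucleus had UMIs of 3 marker genes and 16 nuclei (0.824%) had all 6. In suffix 2 the median was 1 gene, 55.8% of marker-rich nuclei owed their place to 1 gene alone, and 0 of 794 had all 6, which allows a share of up to 0.378%. Vat1l UMIs were in 56.5% of marker-rich nuclei of suffix 1 and 55.9% of suffix 2, against 22.0% and 7.70% of the other gated nuclei. The counts of Vat1l, Rorb and Cdh2 were spread unevenly over nuclei, with a variance over all gated nuclei of 4.17, 3.08 and 2.96 times the mean in suffix 1 and of 5.26, 3.87 and 3.12 times in suffix 2, while Trim67 stood at 1.62 and 1.27 times. A single nucleus held up to 27 Vat1l UMIs and up to 31 Cdh2 UMIs.

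Each marker gene was also measured in nuclei chosen on the other 5, so that its own level played no part in that choice. The set of 6 genes had been drawn up with earlier results of these data known. The ratios therefore describe the set and are no independent support for it. Rorb was the gene that differed most. It stood at 78.3 CPM in nuclei chosen on the other 5 genes against 40.9 CPM in the remaining gated nuclei of suffix 1, a ratio of 1.92 (95% interval 1.78 to 2.07), and at 18.02 against 11.1 CPM in suffix 2, a ratio of 1.62 (95% interval 1.24 to 2.11). For Vat1l the ratios were 1.51 (95% interval 1.43 to 1.59) and 1.37 (95% interval 1.23 to 1.52). For Adamts6 they were 1.55 (95% interval 1.45 to 1.65) and 1.23 (95% interval 0.9899 to 1.52), and for Cdh2 1.36 (95% interval 1.31 to 1.405) and 1.11 (95% interval 0.977 to 1.27). Trim67 had ratios of 1.39 (95% interval 1.32 to 1.46) and 1.13 (95% interval 0.903 to 1.396), and Mmd2 of 1.21 (95% interval 1.05 to 1.38) and 1.504 (95% interval 0.716 to 2.94). All 12 ratios were above 1, but the interval lay above 1 for 6 of 6 genes in suffix 1 and for 2 of 6, Rorb and Vat1l, in suffix 2.

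**Figure D2:**
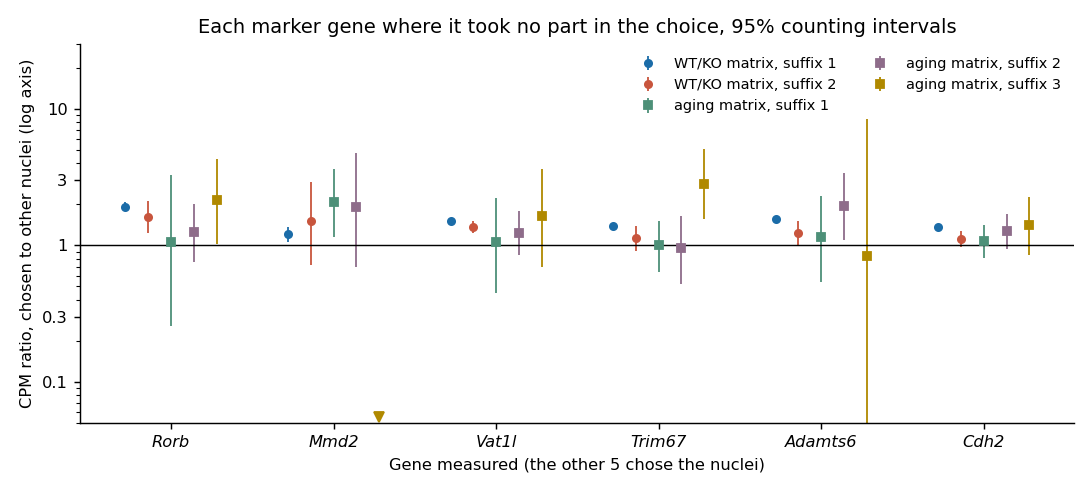
Each marker gene measured in nuclei chosen on the other 5, as the CPM ratio of chosen to other gated nuclei on a log axis, with 95% intervals for counting error, in the 2 suffixes of the first matrix and the 3 suffixes of the aging matrix (a triangle marks 0 UMIs). Rorb lies at 1.92 and 1.62 in the first matrix, and most intervals of the aging matrix, which has fewer nuclei, cross 1.

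When the UMIs of each nucleus were divided at random into 2 parts, with nuclei chosen on one part and levels read from the other, the ratios were 3.26 and 9.25 for Vat1l, 3.14 and 4.98 for Rorb, and 1.97 and 3.03 for Cdh2. For Vat1l in suffix 2 the value of 9.25 compares with 1.37 (95% interval 1.23 to 1.52) when the other 5 genes chose. Mmd2 stood at 1.61 and 0.9101. Of the nuclei in the top 20% on one part of their UMIs, 44.3% in suffix 1 and 46.7% in suffix 2 were also in the top 20% on the other part, against 20% of all gated nuclei. Both parts come from the nuclei and genes that the rule used, so these values too are a description.

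Taken by pairs, nuclei with at least 2 UMIs of 1 marker gene were compared, for another marker gene, with nuclei that had 0 UMIs of the first, although the former were deeper (medians of 7218 against 5377 UMIs for Cdh2 in suffix 1). In suffix 1 all 30 ordered pairs had at least 20 UMIs of the other gene and their ratios ranged from 0.984 to 1.67 with a median of 1.26, and 27 intervals lay above 1. In suffix 2 14 of 30 pairs had as many UMIs, with ratios from 0.673 to 2.02, a median of 1.02, and intervals above 1 in 4 pairs and below 1 in 2. In suffix 2, nuclei with Trim67 had a Cdh2 ratio of 2.02 and a Vat1l ratio of 0.673 (95% interval 0.489 to 0.905), and nuclei with Cdh2 had a Vat1l ratio of 0.721 (0.609 to 0.847). Nuclei with Rorb had a Vat1l ratio of 1.67 (1.302 to 2.12) and nuclei with Adamts6 one of 1.26 (1.03 to 1.54). These nuclei numbered 65 with Rorb, 111 with Adamts6, 78 with Trim67 and 339 with Cdh2, and the intervals leave out the uneven spread of Vat1l over nuclei. Nuclei of suffix 2 with Vat1l had ratios of 1.47 (1.15 to 1.86) for Adamts6 and 1.40 (0.993 to 1.94) for Rorb. They had 1.03 (0.782 to 1.35) for Trim67 and 0.898 (0.753 to 1.06) for Cdh2. Vat1l thus went with Adamts6 in both directions, and the other pairs were less clear when Vat1l chose. In suffix 1 the Vat1l ratios of nuclei with Trim67 and Cdh2 were 1.14 and 1.16.

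Beyond the marker genes, 8120 genes had at least 200 UMIs in the gated nuclei of each suffix, and a gene was called where its CPM ratio of marker-rich to other gated nuclei was at least 1.5, or at most 1 over 1.5, in both suffixes. By this rule 7 genes (0.0862%) were higher and 9 genes (0.111%) lower. In suffix 1 alone 58 genes (0.714%) were past the fold upward and 73 (0.899%) downward, and in suffix 2 alone 148 (1.82%) and 143 (1.76%). The log2 ratios of the libraries had a Pearson correlation of 0.044 across the 8120 genes, given as a description since genes share nuclei and depth. Past the marker genes, few genes met the rule in both libraries, and 0 met it in either direction with nuclei thinned to 1000 UMIs (3323 genes measured). With levels read from UMIs that took no part in the choice (6300 genes measured), 0 genes were higher and 10 lower.

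**Figure D3:**
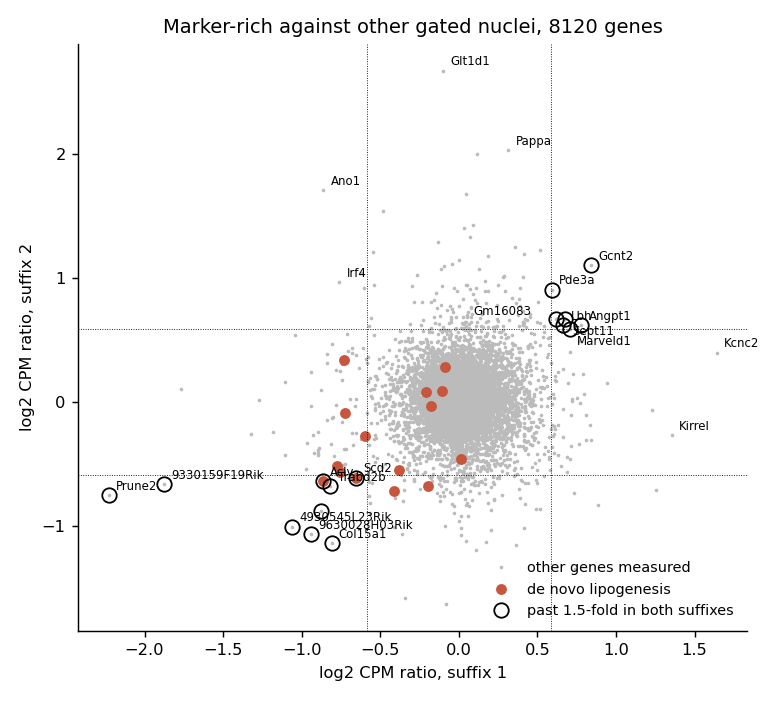
Log2 CPM ratio of marker-rich to other gated nuclei in suffix 1 (horizontal) and suffix 2 (vertical), 1 point per gene over 8120 genes, with dotted lines at the 1.5-fold limit, red points for the lipogenesis list and rings for genes past the limit in both (1 ring has no name beside it). The 7 genes higher and 9 genes lower in both lie in the outer corners, and most genes past a line are past it in 1 suffix only.

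The genes higher in both libraries included a phosphodiesterase, a glycosyltransferase and a secreted ligand. Gcnt2, a glycosyltransferase that branches cell-surface glycans, stood at 24.8 against 13.8 CPM in suffix 1, a ratio of 1.79 (95% interval 1.57 to 2.05), and at 27.2 against 12.7 CPM in suffix 2, a ratio of 2.15 (95% interval 1.71 to 2.68). Pde3a, which breaks down cyclic AMP, stood at 682 against 452 CPM (ratio 1.51, 95% interval 1.47 to 1.54) and at 430.4 against 229.9 CPM (ratio 1.87, 95% interval 1.77 to 1.98). Angpt1, the ligand of the endothelial receptor Tie2, stood at 370.1 against 216 CPM (ratio 1.72, 95% interval 1.66 to 1.78) and at 184 against 119 CPM (ratio 1.54, 95% interval 1.42 to 1.67). Pde3a and Angpt1 rested on the most UMIs among these genes, 8484 and 4607 in marker-rich nuclei of suffix 1. The others were Sept11, a septin of the cytoskeleton, with ratios of 1.596 and 1.59, Lbh, a transcriptional regulator, with 1.59 and 1.54, Marveld1 with 1.63 and 1.501, and 1 gene model without a gene name.

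The genes lower in both libraries included Prune2, 1 collagen and enzymes of fatty acid synthesis. Prune2 stood at 2.25 against 10.5 CPM in suffix 1 (ratio 0.214, 95% interval 0.141 to 0.312) and at 13.3 against 22.3 CPM in suffix 2 (ratio 0.594, 95% interval 0.443 to 0.783). Acly, which makes cytosolic acetyl-CoA from citrate, stood at 182 against 331 CPM (ratio 0.549, 95% interval 0.526 to 0.574) and at 115 against 179 CPM (ratio 0.643, 95% interval 0.584 to 0.706). Scd2, a stearoyl-CoA desaturase, had ratios of 0.636 (95% interval 0.549 to 0.733) and 0.654 (95% interval 0.446 to 0.934). These enzymes stand at the entry and near the end of fatty acid synthesis. Col15a1, a collagen of the basement membrane zone, had ratios of 0.571 and 0.455, and Trabd2b, a protease that inactivates Wnt proteins, of 0.568 and 0.624. Of the rest, 3 were gene models without gene names. The genes called higher spanned a median of 94.5 kb and those called lower 51.6 kb.

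Genes of de novo lipogenesis stood lower in marker-rich nuclei of both libraries. Of its 15 genes, all measured, 0 were past the fold upward and 2 downward (Acly and Scd2), and 10 (66.7%) had ratios below 1 in both libraries against 22.3% of all genes measured. The interval lay below 1 in both libraries for 8 of the 15 (53.3%), against 2.91% of all genes measured. The median ratio was 0.751 in suffix 1 and 0.727 in suffix 2, and the median of the mean log2 ratios was -0.44, where all genes measured had 0.01.

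Acaca, the acetyl-CoA carboxylase that commits carbon to fatty acid synthesis, stood at 1610.3 against 2718 CPM in suffix 1 (ratio 0.593, 95% interval 0.584 to 0.601) and at 2146 against 3166 CPM in suffix 2 (ratio 0.678, 95% interval 0.663 to 0.693). Fasn, fatty acid synthase, stood at 374 against 642 CPM (ratio 0.584, 95% interval 0.566 to 0.602) and at 201 against 288 CPM (ratio 0.6998, 95% interval 0.651 to 0.752). Slc25a1, the mitochondrial citrate carrier, had ratios of 0.751 and 0.6098, and Me1, the malic enzyme that supplies NADPH, of 0.768 and 0.685. Acly, Acaca, Fasn, Slc25a1 and Me1, which carry carbon or reducing power from citrate to palmitate, were thus below 1 in both libraries. Insig1, which holds back SREBP processing, had ratios of 0.661 and 0.827, and Thrsp, a lipogenic regulator, of 0.873 and 0.624.

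Other members of the list differed less evenly between the libraries. Elovl6, which lengthens palmitate, had a ratio of 0.603 (95% interval 0.588 to 0.618) in suffix 1 and of 1.26 (95% interval 1.22 to 1.304) in suffix 2, and Acss2, which activates acetate, of 0.606 and 0.942. Srebf1, which encodes SREBP1, had ratios of 1.01 and 0.727, and Mlxipl, which encodes ChREBP, of 0.884 and 0.979. Scd1 had ratios of 0.928 and 1.06, Acacb of 0.866 and 1.06, and Elovl5 of 0.939 and 1.22. Summed over the list, the ratio was 0.751 (95% interval 0.747 to 0.756) in suffix 1 and 0.864 (95% interval 0.854 to 0.875) in suffix 2.

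The levels over the range of marker gene shares differed between the libraries. In suffix 1, cut into 5 equal parts, the summed level of the lipogenesis list was 13313, 12465, 11350, 10315 and 8887 CPM from the lowest to the highest marker gene share. Acly stood at 405, 372, 307, 246 and 182 CPM in the same parts, and Fasn at 778, 699, 597, 504 and 374 CPM. Both were lower in each part than in the one before, while Ucp1 stood at 947, 1036, 1060.4, 1054 and 1048 CPM. The fall over the parts of suffix 1 was shared by other metabolic lists. The fatty acid oxidation list summed to 8329.6, 8114, 7692, 7231 and 6797 CPM and the glycolysis and hypoxia list to 5298, 4959, 4619, 4333 and 4042 CPM. In suffix 2 those lists did not fall from the first part to the last, at 4313 and 5758 CPM and at 4257 and 4441 CPM. There the nuclei without marker gene UMIs formed 1 part of 2064 nuclei, followed by parts of 314, 792 and 794 nuclei with median depths of 4563, 10249, 6122.5 and 4721.5 UMIs. Acly stood at 199, 189.7, 135 and 115 CPM there, and the summed list at 8766, 9128, 7729.8 and 7382 CPM, so that the list was higher in the second part than in the first. Acaca was too, at 3265, 3701, 2634 and 2146 CPM, and Elovl6 was higher in each part than in the one before, at 861, 877, 978 and 1133 CPM.

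**Figure D4:**
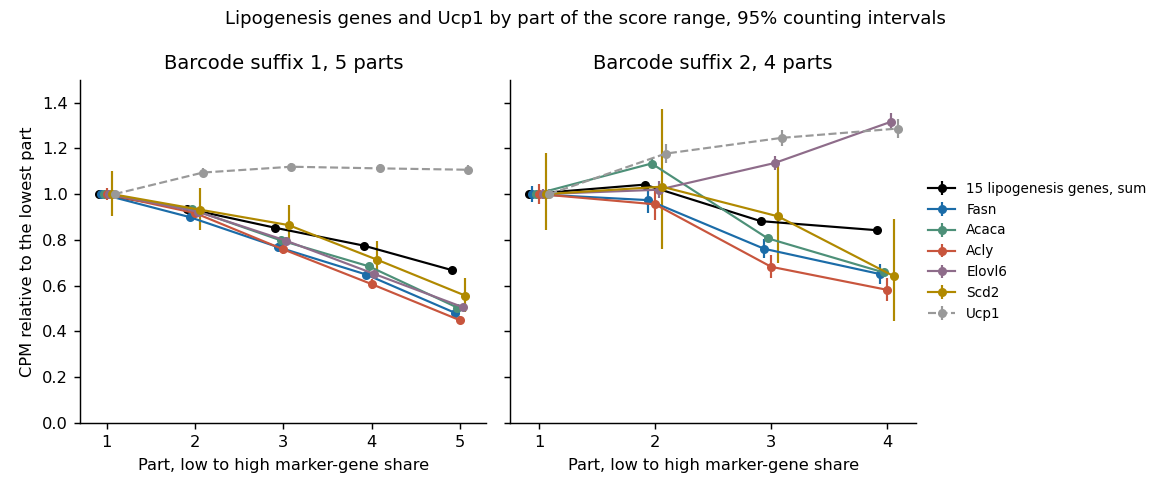
Level in each part of the marker-gene share, relative to the lowest part, for the lipogenesis list and single genes with 95% intervals for counting error, with suffix 1 in 5 parts and suffix 2 in 4 parts (the first holds the nuclei with no marker gene UMI). Acly ends at 182 CPM from 405 CPM in suffix 1 and at 115 CPM from 199 CPM in suffix 2, while Ucp1 ends above its first part in both.

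Per nucleus, 5.36% (exact binomial 95% interval 4.396 to 6.45%) of marker-rich nuclei of suffix 1 were among the 20% of gated nuclei with the highest share of UMIs in the lipogenesis list, against 23.7% of the other gated nuclei. In suffix 2 the shares were 13.98% (11.6 to 16.6%) and 21.5%. For the glycolysis and hypoxia list the shares were 8.60% against 22.9% in suffix 1 and 21.8% against 19.7% in suffix 2. With every nucleus thinned to 1000 UMIs before the choice, the shares for the lipogenesis list were 16.9% against 27.0% in suffix 1 and 18.9% against 22.5% in suffix 2. Those for the glycolysis and hypoxia list were then 18.3% against 22.9% and 30.8% against 28.4%. Ties made the thinned choice 4238 nuclei in suffix 1 and 614 in suffix 2.

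Each marker gene was also used alone to choose nuclei. In suffix 1 the summed lipogenesis level was lower in nuclei chosen on each of the 6 genes, with ratios from 0.831 to 0.885 and 6 of 6 intervals below 1. The fatty acid oxidation list (0.906 to 0.941) and the glycolysis and hypoxia list (0.884 to 0.958) were lower with 6 of 6 genes there too. In suffix 2 the lipogenesis level was lower for 5 of 6 genes, and the exception was Mmd2 at 1.22, with 43 nuclei. The ratio nearest to 1 among the others was that of Trim67, at 0.988 (95% interval 0.976 to 0.9996) in suffix 2. Nuclei chosen on Rorb alone had ratios of 0.839 (95% interval 0.834 to 0.844) and 0.864 (95% interval 0.845 to 0.884). The lower level was thus seen with each of Rorb, Vat1l, Trim67, Adamts6 and Cdh2 in both libraries, if barely with Trim67 in suffix 2.

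**Figure D5:**
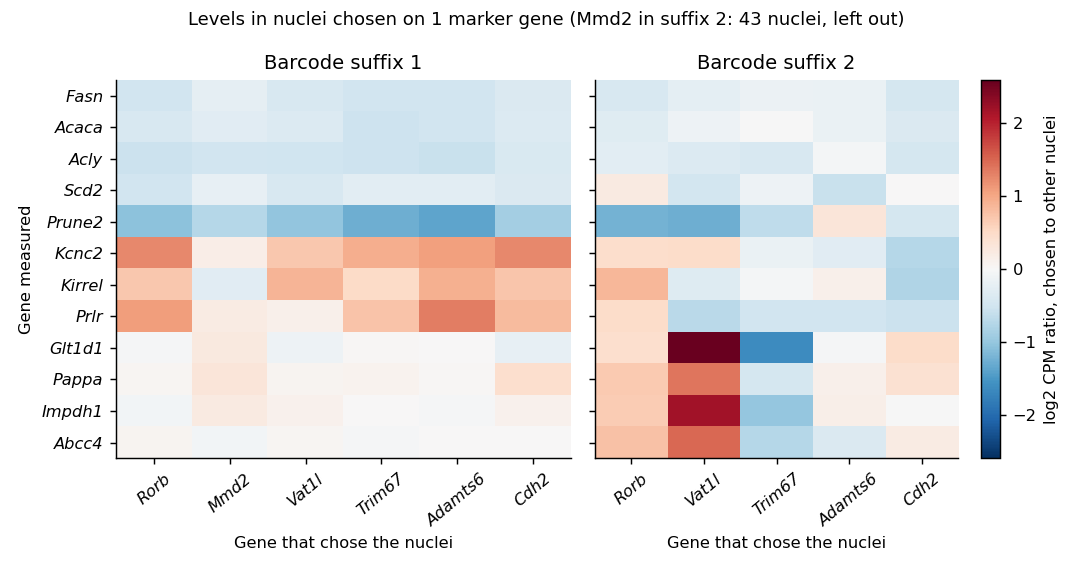
Heat map of log2 CPM ratios of nuclei chosen on 1 marker gene (columns) against the other gated nuclei for 12 genes (rows), in each suffix. The Vat1l column of suffix 2 stands apart with Glt1d1 at a ratio of 5.91 and Impdh1 at 4.54, and Mmd2 in suffix 2 is left out because 43 nuclei carried it.

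Other genes stood past the fold upward in 1 library and not in the other. These genes were picked after their values were seen, as the upper ends of each suffix's range. In suffix 1, Kcnc2, a voltage-gated potassium channel, stood at 24.5 against 7.86 CPM (ratio 3.12, 95% interval 2.69 to 3.62), with 1.32 (95% interval 1.12 to 1.54) in suffix 2. Kirrel, an adhesion protein, had ratios of 2.56 and 0.8304, and Prlr, the prolactin receptor, of 2.38 and 0.611, past the fold in opposite directions. Nuclei chosen on Rorb, Vat1l, Trim67, Adamts6 or Cdh2 alone had Kcnc2 ratios from 1.63 to 2.39 in suffix 1.

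In suffix 2 the largest ratios belonged to Glt1d1, at 60.7 against 9.55 CPM (ratio 6.36, 95% interval 5.26 to 7.69), with 0.932 in suffix 1. Pappa, a protease that frees insulin-like growth factors from their binding proteins, stood at 42.1 against 10.3 CPM (ratio 4.07, 95% interval 3.32 to 4.99), with 1.24 in suffix 1. Impdh1, of guanine nucleotide synthesis, had ratios of 4.002 in suffix 2 and 1.08 in suffix 1, and Abcc4, an exporter of cyclic nucleotides, of 2.64 and 1.02. These genes were also higher where Vat1l alone chose. Nuclei of suffix 2 chosen on Vat1l alone had ratios of 5.91 for Glt1d1, 4.54 for Impdh1, 2.82 for Abcc4 and 2.61 for Pappa. For Pappa that was lower than the 4.07 with all 6 genes. Those chosen on Trim67 alone had 0.323 for Glt1d1.

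Thermogenic genes were not set apart in both libraries. Of 12 thermogenic effectors, all measured, 0 were past the fold in either direction and the median of the mean log2 ratios was 0.13. Over all genes measured 0.0862% were past it upward and 0.111% downward in both libraries. A count of 0 in a short list, here or below, thus says little. Of the 12 genes, 3 (25%) were above 1 in both libraries, against 28.4% of all genes measured. The interval lay above 1 for 3 genes in suffix 1 and 10 in suffix 2, and below 1 for 5 and 0. Ucp1 had ratios of 1.02 and 1.17, Cidea of 0.8696 and 1.39, and Dio2, which activates thyroid hormone, of 1.04 and 0.9896. Of 15 brown adipocyte identity genes measured, 0 were past the fold and 7 (46.7%) were above 1 in both libraries, against 28.4% of all genes measured. Esrrg, an estrogen-related receptor of mitochondrial genes, had ratios of 1.13 and 1.74, and Ppargc1a, the coactivator PGC-1α, of 1.31 and 1.06. Of 14 fatty acid oxidation genes, 0 were past the fold, with median ratios of 0.986 and 1.22, and Ehhadh, of peroxisomal oxidation, had 0.689 and 1.92.

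Among 21 adrenergic and cyclic AMP genes measured, Pde3a was the 1 past the fold. Adrb3, the β3-adrenergic receptor of brown fat, had ratios of 0.786 and 0.736, Adcy9, an adenylyl cyclase, of 1.18 and 1.71, and Gnas, the stimulatory G protein subunit, of 1.203 and 1.21. Of 17 ROR and clock genes measured, 0 were past the fold and 8 (47.1%) were below 1 in both, against 22.3% of all genes measured. The ROR paralog Rora had ratios of 0.831 in suffix 1 and 1.04 in suffix 2. Hlf, a clock output factor, had 1.26 and 1.34.

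Of 10 white-like adipocyte genes measured, 0 were past the fold and 7 (70%) were below 1 in both, against 22.3% of all genes measured, with a median log2 ratio of -0.45. Summed per nucleus the libraries differed, since 23.2% of marker-rich nuclei of suffix 1 were in the top 20% for this list against 19.2% of the others, and 13.1% against 21.7% in suffix 2. Retn, the hormone resistin, had ratios of 0.677 and 0.568, at 4.02 and 53.98 CPM in marker-rich nuclei, and Nnat, neuronatin, of 0.754 and 0.587, whereas Npr3, the natriuretic peptide clearance receptor, had 1.65 and 1.02. Of 10 sterol synthesis and uptake genes measured, a list drawn up after values were seen, 0 were past the fold upward. Of these 10 genes, 8 (80%) were below 1 in both, against 22.3% of all genes measured, with a median of -0.28. Of 19 glycolysis and hypoxia genes 0 were past the fold (median -0.10), and of 18 insulin and IGF genes 0 (median -0.06). Of 16 axon guidance genes 0 were past the fold, of 18 matrix genes 1 (Col15a1, lower), of 13 adipokines 1 (Angpt1, higher), of 7 cadherins and catenins 0, of 17 lipid uptake and storage genes 0, of 4 calcium and creatine cycling genes 0, of 7 SNARE genes 0 and of the 4 paralogs of the marker genes measured 0. The 9 pyroptosis genes had too few UMIs to be measured singly, and their sum stood at 15.02 against 12.9 CPM in suffix 1 and at 30.2 against 27.1 CPM in suffix 2.

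Transcripts of other cell types were summed in the same nuclei, where the gate had already limited 9 of them. The endothelial list stood at 133 against 127 CPM in suffix 1 and at 120.0 against 81.5 CPM in suffix 2, a ratio of 1.47 (95% interval 1.33 to 1.63) there. The lymphocyte list stood at 5.86 against 5.83 CPM and at 14.2 against 8.23 CPM. The macrophage list had summed ratios of 1.15 and 1.14, the progenitor or fibroblast list of 0.912 and 0.828, the mural list of 1.01 and 0.9196, the muscle list of 1.097 and 1.04 and the Schwann list of 0.8504 and 0.787. Of the listed markers of these cell types, Ckm and Sox10 were at 0 in marker-rich nuclei of suffix 1, and Cd79a, Sox10 and Kcna1 in those of suffix 2. The interferon-stimulated genes summed to 121 against 99.8 CPM and to 258 against 289 CPM. The part of these transcripts, of depth and of RNA quality in the differences above was not tested.

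Depth and RNA quality differed a little. The median depth of marker-rich nuclei was 5784.5 UMIs in suffix 1, where other gated nuclei had 6322, and 4721.5 UMIs in suffix 2, where others had 5464.5. Mitochondrial transcripts made up a median of 0.228% against 0.209% of UMIs in suffix 1 and 0.0552% against 0.0465% in suffix 2, and Malat1, a nuclear transcript, 5.32% against 5.57% and 5.65% against 6.22%. The 8 adipocyte genes of the gate had summed ratios of 1.05 and 0.8700. Barcodes outside the gate that carried markers of other lineages held Rorb at 18.4 CPM in suffix 1 (831 barcodes, median 3401 UMIs) and 12.5 CPM in suffix 2 (3143 barcodes, median 2494 UMIs), against 145 and 46.5 CPM in marker-rich nuclei. Those levels lay near the 25.8 CPM of the other gated nuclei of suffix 1 and above the 5.095 CPM of suffix 2. By cell type the suffix 2 level was uneven. Barcodes with progenitor or fibroblast markers held 86 of the 123 Rorb UMIs, at 28.2 CPM. Those with Schwann, mural and lymphocyte markers stood at 29.4, 17.1 and 12.4 CPM. With macrophage, muscle and endothelial markers Rorb was at 2.08, 4.27 and 4.37 CPM, below the 5.095 CPM, on 7, 7 and 3 UMIs. A low Rorb level in gated nuclei cannot be told from free RNA by these values.

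The same rule was applied to the aging matrix, which the rule had not used, and levels were compared only within its libraries. No label ties its suffixes 1, 2 and 3 to an age, so ages were not compared. Of 10000 barcodes each, 557, 498 and 170 passed the gate and 112, 100 and 34 were marker-rich. With 5 genes choosing, the sixth had a ratio above 1 for 5, 5 and 4 of the 6 genes, and the interval lay above 1 for 1, 1 and 2 genes. Those were Mmd2 at 2.08 (95% interval 1.15 to 3.64) in aging suffix 1, Adamts6 at 1.95 (95% interval 1.09 to 3.39) in aging suffix 2, and Rorb at 2.15 (95% interval 1.03 to 4.29) and Trim67 at 2.83 (95% interval 1.56 to 5.09) in aging suffix 3. Few UMIs stood behind these ratios, with 14 Rorb UMIs and 23 Trim67 UMIs in the chosen nuclei of aging suffix 3.

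The lipogenesis list was lower in marker-rich nuclei of all 3 aging libraries, with summed ratios of 0.791 (95% interval 0.755 to 0.829), 0.846 (95% interval 0.804 to 0.8902) and 0.886 (95% interval 0.823 to 0.953). Pooled over the libraries, observed UMIs were set against those expected from all gated nuclei of each library, marker-rich nuclei included. Such ratios lie nearer to 1 than ratios of marker-rich to other gated nuclei. The observed UMIs were below the expected for 15 of 15 genes, with a median ratio of 0.817 and 7 intervals below 1. Over 9605 genes, 49.1% were below 1 and the median was 1.004. Acaca had an observed over expected ratio of 0.755 (95% interval 0.711 to 0.801). By library its ratios of marker-rich to other gated nuclei were 0.579 (95% interval 0.521 to 0.642), 0.714 (95% interval 0.642 to 0.792) and 1.12 (95% interval 0.9696 to 1.29), so that it was not lower in aging suffix 3. Fasn had a pooled ratio of 0.771 (95% interval 0.673 to 0.879), Acly of 0.815 (95% interval 0.6900 to 0.957) and Scd1 of 0.795 (95% interval 0.722 to 0.874). Srebf1 had 0.697 (95% interval 0.511 to 0.9302) and Insig1 0.639 (95% interval 0.409 to 0.951). With 1 marker gene choosing, the summed lipogenesis ratio was below 1 for 6, 5 and 4 of the 6 genes, and in aging suffix 3, where as few as 4 nuclei were chosen, it ranged from 0.696 to 1.49.

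Of the genes higher in the first matrix, 6 had at least 5 expected UMIs in the aging matrix and 4 of them were above 1, with summed ratios of 1.196 (95% interval 1.05 to 1.35), 1.18 (95% interval 0.975 to 1.43) and 1.18 (95% interval 0.883 to 1.57). By observed over expected UMIs, as for the single genes and the median below, Angpt1 had 1.17 (95% interval 1.02 to 1.34) and Pde3a 1.14 (95% interval 0.995 to 1.29). The 2 genes below 1 were Lbh at 0.991 (95% interval 0.512 to 1.73) and Sept11 at 0.839 (95% interval 0.489 to 1.34). Of the genes lower, 6 were measured and 4 were below 1, with Trabd2b at 0.425 (95% interval 0.2198 to 0.743). The other 2 were above 1, among them Col15a1 at 1.11 (95% interval 0.532 to 2.04). Over 9605 genes 49.1% were below 1, so 4 of 6 in either direction says little. The genes picked from suffix 1 of the first matrix, Kcnc2, Kirrel and Prlr, had 0.603 (95% interval 0.221 to 1.31), 0.701 (95% interval 0.373 to 1.199) and 0.795 (95% interval 0.258 to 1.86), and those picked from suffix 2 had 1.54 (95% interval 0.913 to 2.44) for Glt1d1, 2.02 (95% interval 1.105 to 3.39) for Pappa, 1.02 (95% interval 0.7597 to 1.33) for Impdh1 and 1.02 (95% interval 0.807 to 1.27) for Abcc4. The 12 sterol genes measured there had a median of 1.01, with 6 above and 6 below 1.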

How the data were processed

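Nuclei of mouse iBAT were sorted and sequenced with 10x Genomics 3′ chemistry by the authors, who aligned reads to mm10 with Cell Ranger 6.1.2, and the submitters' notes also name Seurat 4.1.0. Whether intronic reads were counted is not given in the sources used here. The authors deposited 2 matrices of raw UMI counts per gene and barcode, which were used as deposited. A filter stated by the study (200 to 2000 UMIs, 100 to 3000 genes) leaves 2763 of 20307 barcodes (0 of suffix 1), 277 of them gated and 72 marker-rich, and was not applied here. No doublet caller was run. Doublets were limited by the gate and by an alternative without the deepest nuclei.

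UMIs were summed over marker-rich and other gated nuclei within each suffix and divided by all UMIs of those nuclei (CPM). Intervals are exact 95% Poisson intervals for levels, conditional binomial for ratios and Clopper-Pearson for shares, and cover counting error only. A share of 0 is given with the limit of 3 counts. Genes with at least 200 UMIs per suffix were measured. The fold was 1.5. Named genes are the marker genes, the 15 highest and 15 lowest called genes except gene models (symbols that start with Gm and a digit or end in Rik), and members of the gene lists. Others were chosen after their values were seen. The members and lists were chosen with earlier results of these data known. The scripts were checked on simulated data. Python 3.11.15, numpy 2.4.6, scipy 1.17.1, pandas 2.3.3 and matplotlib 3.10.9 were used. Gene positions come from an mm10 annotation by Ensembl ID and promoter windows from RefSeq (GRCm38.p6). The values of some genes are not reported here.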

Additional observations from a re-analysis of the deposited data

Results flagged for a closer look

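The libraries of the first matrix moved past the 1.5-fold limit in opposite directions for 8 genes. The difference between the libraries was not tested, the genes were found by their values, and no label says which genotype either library holds. Irf4, a transcription factor of the adrenergic response, had a ratio of 0.590 in suffix 1 and 1.95 in suffix 2, at 29.96 and 256 CPM in marker-rich nuclei. Ano1, a calcium-activated chloride channel, had 0.550 and 3.26, and Mapt, the microtubule protein tau, 0.651 and 2.06. The gene model 4833411C07Rik had 0.657 and 1.89. Prlr, the prolactin receptor, had 2.38 in suffix 1 and 0.611 in suffix 2, with 95 and 45 UMIs in marker-rich nuclei. Pgap1 had 1.85 and 0.562, Dnajc12 1.67 and 0.394 with 20 UMIs in suffix 2, and Gm44148 1.66 and 0.600.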

How the results depend on the processing

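Medians near 0 changed sign: that of fatty acid oxidation (0.10) was -0.02 and that of thermogenic effectors (0.13) was -0.05 in suffix 1 alone, and that of glycolysis and hypoxia (-0.10) was 0.01 with thinned nuclei and 0.05 in suffix 2 alone. The lipogenesis, sterol and white-like medians stayed below 0. No paired analysis was possible because the nuclei form 1 pooled sample per matrix and the result comes from no test. The number of genes higher in both libraries (7) was 4 with the top 30%, without the deepest nuclei, with nuclei chosen within 10 classes of depth and with mean CPM per nucleus, 1 with an adipocyte share of 1.2%, and 0 with nuclei thinned to 1000 UMIs and with levels read from UMIs not used for the choice. It was 172 for suffix 1 alone and 152 for suffix 2 alone (11214 and 8347 genes with 200 UMIs in that suffix, not in both), 32 with at least 50 UMIs per gene, 2 with 500, 55 at a fold of 1.3 and 0 at a fold of 2. The number lower (9) was 22 with the top 10%, 3 with an adipocyte share of 1.2%, 0 with thinned nuclei, 151 for suffix 1 alone, 204 for suffix 2 alone, 51 with at least 50 UMIs, 4 with 500, 41 at a fold of 1.3 and 1 at a fold of 2. The median log2 ratio of the lipogenesis list (-0.44) was -0.39 with the top 30% and with mean CPM per nucleus, -0.38 without UMIs of other lineages and within 10 classes of depth, -0.40 with an adipocyte share of 1.2% and without the deepest nuclei, and -0.25 with thinned nuclei. That of the sterol list (-0.28) was -0.033 with thinned nuclei. The median observed over expected ratio of the lipogenesis genes in the aging matrix (0.817) was 0.727 with the top 10% and 0.865 with the top 30%. With 5 marker genes choosing, the ratios of the sixth were below 1 only for Trim67 in suffix 2, at 0.941 at the lowest (1.13 as reported). Few marker gene UMIs per nucleus limit which nuclei are selected, most in suffix 2, and genes under 200 UMIs per library were not measured.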

Other observations

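Outside the gate, the 6 marker genes together stood at 271 CPM in the 831 barcodes of suffix 1 that carried markers of other lineages, and at 106 CPM in the 3143 such barcodes of suffix 2. Cdh2 stood at 268 CPM in the barcodes with mural markers of suffix 1 and at 196 CPM in those of suffix 2. Over all such barcodes Cdh2 stood at 138.6 and 34.2 CPM. Marker-rich nuclei held Cdh2 at 614 and 222 CPM, so the mural level of suffix 2 lay near theirs. With Schwann markers of suffix 2 Cdh2 was at 170.6 CPM. Adamts6 in suffix 2 stood at 117.7 CPM with muscle markers (193 UMIs) and at 128.6 CPM with lymphocyte markers (31 UMIs). Both levels were above the 57.9 CPM of marker-rich nuclei of suffix 2. The other cell types of suffix 2 held Adamts6 at 10.5 to 26.2 CPM, below marker-rich nuclei. Rorb was at 0 UMIs in the 91 barcodes of suffix 1 with macrophage markers, which allows up to 9.22 CPM, and at 28.2 CPM in the 877 barcodes of suffix 2 with progenitor or fibroblast markers. Ucp1 was present in all such barcodes together at 496 CPM in suffix 1 and 257 CPM in suffix 2.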
